A study of Mus musculus with 15 samples.

Results

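Transcript levels in 4T1 cells that carried shTM4SF1-1, the first of the hairpins against Tm4sf1 used in the study (hairpin 1 here), were compared with those in 4T1 cells that carried a scrambled hairpin. The comparison takes 6 of the 15 arrays of the series, chosen by their labels: 3 arrays of hairpin 1 and 3 arrays of scramble. 4T1 is a mouse mammary carcinoma line from a BALB/c tumour that spreads to distant organs when it is implanted in mice. In every group of the comparison the cells were stably transduced with a lentiviral vector that expresses a short hairpin RNA, pLKO for the Tm4sf1 hairpins, so scramble cells share the lentiviral delivery and the presence of a hairpin. Such stable lines carry the knockdown for many divisions, and no line with Tm4sf1 restored is among the samples. A further 3 arrays of 4T1 cells with another hairpin against the same gene, shTM4SF1-5 (hairpin 5), were used where a difference between hairpins was tested. The remaining 6 arrays were of the sister line 4TO7, 3 with the pBabepuro vector and 3 of cells stably expressing TM4SF1. They entered the normalization, the filter for detected probes, the choice of probe and the estimate of the spread. The labels call the replicates biological and do not say whether they came from separate transductions or cultures, so p-values measure the spread between these arrays. The labels do not say which of the named hairpin clones hairpin 1 is.

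TM4SF1 crosses the membrane several times, resembles tetraspanins in topology, and is found at the surface and in endosomes of many carcinoma cells and of endothelium. Proteins of this kind gather receptors and integrins into membrane domains. In breast cancer cells TM4SF1 has been linked to the collagen receptor DDR1 and to JAK2-STAT3 signalling. Several of the gene groups below answer to stress. The integrated stress response raises ATF4 when amino acids are short or unfolded protein collects in the endoplasmic reticulum, and ATF4 raises amino acid transporters, asparagine synthetase and CHOP. The transcription factor NRF2 raises enzymes that make and use glutathione, and the hypoxia-inducible factors raise glycolytic enzymes and glucose uptake.

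Tm4sf1 was lower on every hairpin 1 array than on any scramble array. Its normalized log2 signal (probe ILMN_2462650) was 6.77, 6.96 and 7.09 with hairpin 1, against 8.17, 8.01 and 8.03 with scramble. The groups did not overlap, and the transcript stayed detected on all 3 hairpin 1 arrays. The mean fell to 6.94 ± 0.163 with hairpin 1, against 8.07 ± 0.0831 with scramble (SD, n = 3 each), a 2.19-fold lower signal with a 95% interval of the log2 change from -1.53 to -0.73 (adjusted p = 0.000491, limma). Tm4sf1 was the single gene called among 13 measured members of the L6 and tetraspanin families, whose median change was -0.15. Without background correction the change of Tm4sf1 was -0.77, so its size depends on the background while its direction held in every alternative run. Mean array signal was 408.8, 222.0 and 291.1 intensity units with hairpin 1 and 418.6, 362.9 and 249.0 with scramble, and 9915 to 10350 against 9436 to 10703 of 25697 probes were detected. Across genes, normalized arrays correlated at r = 0.989 to 0.993 within hairpin 1, 0.990 to 0.995 within scramble and 0.982 to 0.991 between them.

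With hairpin 1, limma called 480 of 8228 genes changed (5.83%; adjusted p under 0.05), 248 up (3.01%) and 232 down (2.82%). Most changes were small. The median size among called genes was 0.48 on the log2 scale, 259 of the 480 lay under 0.5, and 25 reached 1, of which 12 rose and 13 fell. The smallest called change was 0.24. Calls were more frequent among brighter genes: in 3 bins of equal size by mean signal, 8.09% of the brightest genes were called at a median size of 0.37, 6.05% of the middle genes at 0.52 and 3.35% of the dimmest at 0.73. The arrays of both groups did not overlap for 25.1% of all genes. The largest rises and falls named here were taken only from such genes, so their lack of overlap is no separate evidence. Genes just inside the threshold were Gpt2, Samd14 and Rbfox2 (adjusted p = 0.0497, 0.0496 and 0.049), and just outside it Arntl, Lgals3bp and Brip1 (0.05, 0.0501 and 0.0509, limma). The count was 289 without hairpin 1 replicate 2, 273 without hairpin 1 replicate 3, 290 without scramble replicate 1 and 281 without scramble replicate 3. Scaling the arrays to a common median over all probes, in place of quantile normalization, left 48 calls, and under it 2 of the integrated stress response, 1 of the NRF2, 1 of the hypoxia and 1 of the histone genes described here were called.

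**Figure D1:**
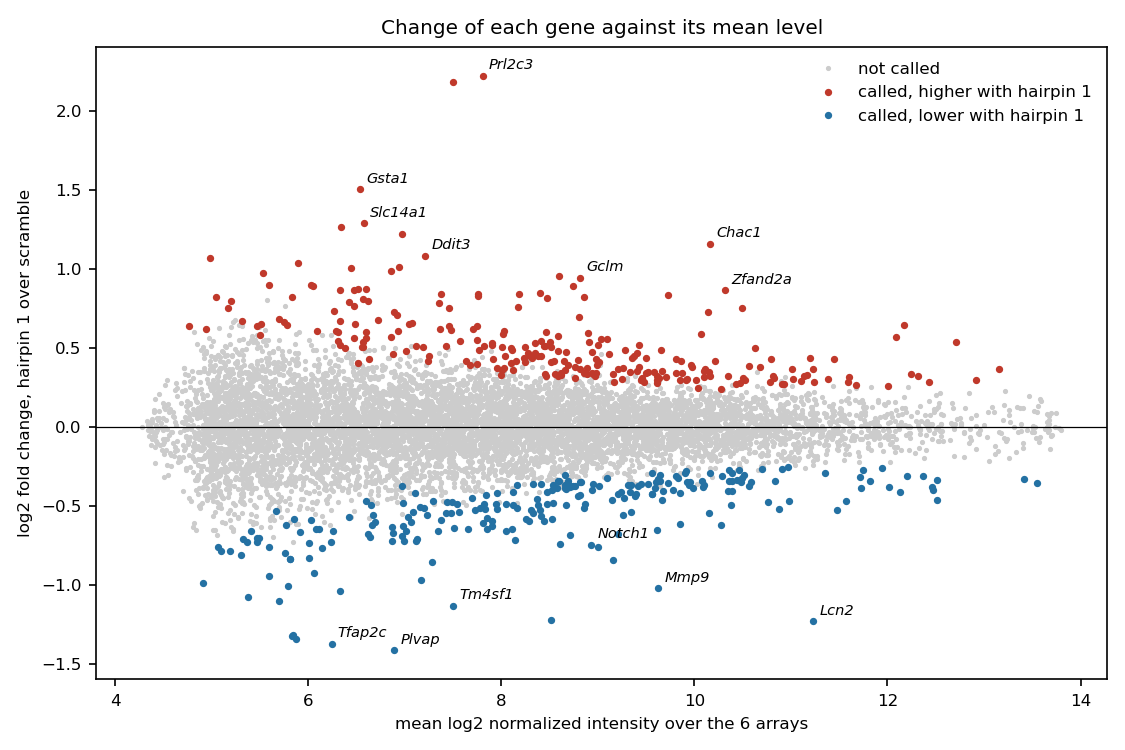
Each point is 1 of 8228 genes, with its mean normalized log2 signal over the 6 arrays on the x axis and its log2 change, hairpin 1 minus scramble, on the y axis; red points rose and blue points fell at an adjusted p under 0.05. The 248 rises and 232 falls spread over the whole signal range, and the proliferin gene Prl2c3 and Plvap lie at the ends among named genes.

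Among called genes, 121 had other detected probes. Of these 167 probes 145 moved in the direction of the probe used, 36 of them past the threshold, and 0 were called in the opposite direction. The median ratio of the other probe's change to that of the probe used was 0.669. Genes described here with other probes that were not called included Srxn1 (0.29 and 0.33), Sars (0.05), Mgst1 (0.35), Mgst3 (0.12), Flcn (0.28), Ltbp3 (-0.39), Mustn1 (-0.46), Oas1g (-0.32), Usp18 (-0.34) and Tfap2c (-0.51).

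Genes of the integrated stress response rose as a group. Of 27 measured members 12 rose and 0 fell, 44.4% against 5.83% of all genes, and the median change over the 27 was 0.43, against 0.0017 over all genes. This list and the other lists here were chosen with earlier results of these data known, so their shares are a description. Each list's count stands against 5.83% of all genes called, 3.01% higher and 2.82% lower. On single arrays the median of the group, taken relative to the scramble mean, was 0.37, 0.34 and 0.45 with hairpin 1 and 0.028, 0.036 and -0.047 with scramble. The 12 were Chac1, Ddit3, Slc7a11, Slc1a4, Trib3, Slc7a3, Ppp1r15a, Gpt2, Asns, Slc6a9, Eif4ebp1 and Nupr1. The count stayed at 8 or more when any 1 of the 6 arrays was left out, and was 8 without scramble replicate 3.

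Chac1, which encodes an enzyme that degrades glutathione, had a log2 signal of 10.75, 10.77 and 10.71 with hairpin 1 and of 9.64, 9.67 and 9.43 with scramble. All hairpin 1 arrays lay more than 1 unit above the highest scramble array. The signal was 2.24-fold higher (log2 change 1.16, SE 0.083, adjusted p = 2.47e-10, limma). Ddit3, which encodes the transcription factor CHOP, had 7.76, 7.82 and 7.68 with hairpin 1, against 6.76, 6.64 and 6.63 with scramble. It was 2.12-fold higher (1.08, SE 0.136, adjusted p = 7.85e-06, limma), and another Ddit3 probe gave 0.93. Again the groups were apart on every array.

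The amino acid transporters of the group moved with them. Slc7a11 encodes the cystine and glutamate exchanger, and its signal was 9.39, 9.14 and 9.28 with hairpin 1, against 8.49, 8.52 and 8.33 with scramble. It rose by 0.82 (SE 0.112, adjusted p = 2.25e-05, limma). Slc1a4, a carrier of neutral amino acids, had 8.73, 8.38 and 8.56 with hairpin 1 and 7.74, 7.97 and 7.68 with scramble, a rise of 0.76 (adjusted p = 6.39e-05, limma). Neither gene's groups overlapped. The cationic amino acid transporter Slc7a3 rose by 0.65 (adjusted p = 0.0304), a call lost when any of 5 arrays was left out, with an adjusted p of 0.132 without hairpin 1 replicate 3. Trib3, which encodes a pseudokinase induced by CHOP, rose by 0.68 (adjusted p = 0.00832, limma), with an adjusted p of 0.0775 without scramble replicate 3. The remaining 6, including asparagine synthetase (Asns, 0.50) and the glycine transporter Slc6a9 (0.48), are named here after their values were seen. They rose by 0.42 (Nupr1) to 0.60 (Ppp1r15a). Without scramble replicate 3, Ppp1r15a was at adjusted p = 0.137 and Gpt2, which changed by 0.54, at 0.293.

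Among the 15 members that were not called, Atf4 itself changed by 0.29 (adjusted p = 0.247, limma), and Slc7a5, a large neutral amino acid transporter, by -0.18 (adjusted p = 0.173). Atf3, a stress-induced transcription factor gene, was detected on 3 of 3 hairpin 1 arrays and 0 of 3 scramble arrays. Its hairpin 1 mean was 1.38-fold above the lowest detected signal of the scramble arrays. Its log2 change was 0.54, and limma did not call it (adjusted p = 0.12).

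**Figure D2:**
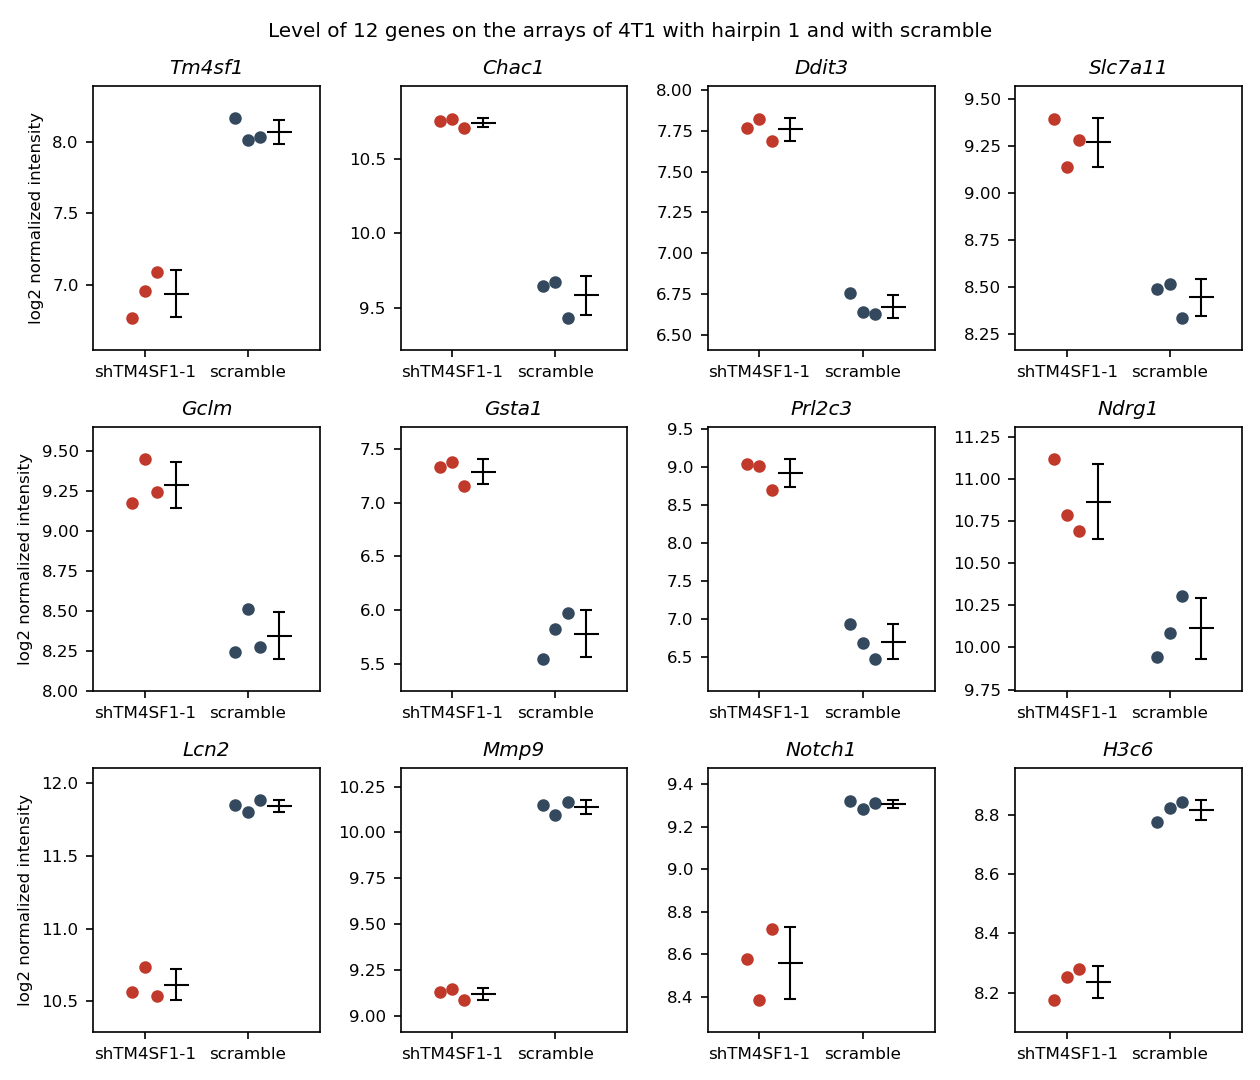
Normalized log2 signal of 12 genes on each array, hairpin 1 left and scramble right, with each point 1 array and the bar and whiskers the mean and SD of 3 arrays; each panel has its own y axis. In every panel the 3 hairpin 1 arrays lie on 1 side of the 3 scramble arrays. This held for 25.1% of all genes, and the largest changes named here were taken only from such genes.

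Enzymes that supply serine, glycine and charged tRNAs were listed apart. Of 8 measured enzymes of serine synthesis and folate-linked carbon transfer 2 rose and 0 fell, and both are mitochondrial. Aldh1l2, a mitochondrial formyltetrahydrofolate dehydrogenase, had 7.29, 7.60 and 7.44 with hairpin 1, against 6.31, 6.53 and 6.46 with scramble (log2 change 1.01, SE 0.121, adjusted p = 3.63e-06, limma). Mthfd2, a mitochondrial folate dehydrogenase, had 7.68, 7.90 and 7.83 with hairpin 1, against 7.09, 7.03 and 6.75 with scramble (0.84, adjusted p = 5.74e-05, limma). Both genes were apart on all arrays and kept the call when any 1 array was left out, but a second, dimmer Aldh1l2 probe gave 0.44 and was not called (adjusted p = 0.209). Shmt2, Phgdh and Psat1 changed by 0.39, 0.24 and 0.19 and were not called (adjusted p = 0.0644, 0.262 and 0.243). Of 17 aminoacyl-tRNA synthetases 2 rose, Nars (0.37) and Sars (0.32), and the median of the family was 0.19. Nars was at adjusted p = 0.0937 without hairpin 1 replicate 2 and Sars at 0.199 without scramble replicate 3.

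Chaperones of the endoplasmic reticulum fold secreted proteins. Of 20 measured chaperones and XBP1 targets 1 was called (5%, against 5.83% of all genes), at a median of -0.05. It was Herpud1, an adaptor of protein degradation at that membrane, with 9.78, 9.71 and 9.68 with hairpin 1 and 9.27, 9.44 and 9.14 with scramble (0.44, adjusted p = 0.000776, limma; another probe 0.51). The chaperone BiP (Hspa5) changed by -0.10 and Xbp1 by -0.13, with adjusted p = 0.88 and 0.472.

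Promoters of the genes that rose were searched for the sequence that ATF4 and its partners bind, the CARE motif TGATGNAA, on both strands, from 250 bases before to 50 after the start of transcription (RefSeq, GRCm38.p6). Of the 12 stress response genes that rose, 10 had a promoter in the RefSeq table, and 6 of these (60%) held a match: Chac1, Slc7a11, Slc1a4, Trib3, Asns and Nupr1. The motif stood in 3 of 13 promoters of measured members that were not called (23.08%), in 2.667% of the promoters of all measured genes and in 4.511% of all promoters in the table. Among all genes that rose it stood in 6.952%, and among all that fell in 5.294%. The list holds genes known to answer to ATF4, so a share above that of all genes is no separate evidence. A match is a description of the letters, since binding was not measured. The promoters of the 4 members with the largest rise that hold a match are printed 5′ to 3′ on the gene's strand, with the match in capitals. Their positions are chr2:119350992-119351291 (Chac1, plus strand), chr3:50443564-50443863 (Slc7a11, minus), chr11:20332664-20332963 (Slc1a4, minus) and chr2:152344011-152344310 (Trib3, minus).
Chac1: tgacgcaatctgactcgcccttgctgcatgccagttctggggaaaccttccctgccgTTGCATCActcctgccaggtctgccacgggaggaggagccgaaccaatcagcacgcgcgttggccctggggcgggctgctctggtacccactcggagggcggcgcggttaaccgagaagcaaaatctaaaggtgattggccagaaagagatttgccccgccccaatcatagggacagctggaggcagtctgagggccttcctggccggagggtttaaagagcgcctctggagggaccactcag
Slc7a11: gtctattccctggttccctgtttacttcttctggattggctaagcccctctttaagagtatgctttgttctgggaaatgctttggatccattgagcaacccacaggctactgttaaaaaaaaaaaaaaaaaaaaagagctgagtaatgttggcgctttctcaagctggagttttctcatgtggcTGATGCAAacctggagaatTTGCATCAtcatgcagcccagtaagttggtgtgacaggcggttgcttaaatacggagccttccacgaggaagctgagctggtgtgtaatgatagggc
Slc1a4: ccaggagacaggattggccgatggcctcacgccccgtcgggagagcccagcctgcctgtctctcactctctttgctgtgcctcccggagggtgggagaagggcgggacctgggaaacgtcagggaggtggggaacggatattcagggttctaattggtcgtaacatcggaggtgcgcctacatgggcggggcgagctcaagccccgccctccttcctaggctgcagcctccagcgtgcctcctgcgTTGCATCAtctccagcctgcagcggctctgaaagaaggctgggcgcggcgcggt
Trib3: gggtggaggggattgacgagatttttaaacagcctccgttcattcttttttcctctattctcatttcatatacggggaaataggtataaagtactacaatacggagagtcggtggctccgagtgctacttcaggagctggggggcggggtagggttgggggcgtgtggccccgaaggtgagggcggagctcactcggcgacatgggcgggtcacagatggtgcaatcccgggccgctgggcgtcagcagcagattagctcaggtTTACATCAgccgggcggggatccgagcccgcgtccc
Slc7a11 holds 2 matches, 66 and 47 bases before the start. The match begins 193 bases before the start in Chac1 and 4 bases before it in Slc1a4, and lies downstream of the start in Trib3.

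NRF2 targets and glutathione enzymes rose in part. Of 26 measured NRF2 targets 6 rose and 0 fell (23.1%) at a median of 0.10. Gclm encodes the modifier subunit of the enzyme that starts glutathione synthesis. Its signal was 9.17, 9.45 and 9.24 with hairpin 1, against 8.24, 8.51 and 8.28 with scramble. It was 1.93-fold higher (log2 change 0.95, SE 0.104, adjusted p = 8.31e-07, limma), with the groups apart. The quinone reductase Nqo1 rose by 0.60 (adjusted p = 0.00297) and the sulfiredoxin Srxn1 by 0.44 (adjusted p = 0.00667), and the others were Slc7a11, the thioredoxin reductase Txnrd1 (0.89) and the autophagy receptor Sqstm1 (0.33). Txnrd1 was detected on 2 of 3 scramble arrays and had an adjusted p of 0.178 without scramble replicate 3, and Sqstm1 one of 0.102 without the same array. Hmox1, the heme oxygenase that NRF2 controls, read 5.77, 5.02 and 5.77 with hairpin 1 and 4.75, 5.41 and 4.49 with scramble. Its groups overlapped (adjusted p = 0.189, limma). Transcripts of NRF2 itself (Nfe2l2, -0.03) and of its inhibitor Keap1 (-0.04) were not called.

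Of 16 measured glutathione transferases 5 rose and 0 fell (31.25%), at a median of 0.05. Gsta1, an alpha-class transferase, had 7.33, 7.38 and 7.16 with hairpin 1 and 5.54, 5.83 and 5.97 with scramble. It was 2.84-fold higher (1.51, SE 0.167, adjusted p = 9.45e-07, limma). Its close paralog Gsta2 rose by 1.04 (adjusted p = 0.000415) and was detected on 2 of 3 scramble arrays. Probes of such near-identical genes may read each other's transcripts. The membrane transferases Mgst1 (0.35) and Mgst3 (0.30) and Gsto1 (0.30) rose by less. Mgst1, Mgst3 and Gsto1 lost the call in 3, 6 and 5 of the 6 omissions of an array, at adjusted p up to 0.09 without hairpin 1 replicate 3, 0.0971 without hairpin 1 replicate 1 and 0.181 without scramble replicate 3, and the family count ranged from 2, without hairpin 1 replicate 3 or scramble replicate 1, to 3. Of 10 aldehyde dehydrogenases 3 rose and 1 fell, at a median of -0.0012. The fall was Aldh3a2 (-0.26), a call lost in 5 of the 6 omissions of an array. Among the rises was Aldh3a1, which clears aldehydes from lipid peroxidation. It read 12.39, 12.43 and 12.31 with hairpin 1, against 11.74, 11.86 and 11.81 with scramble (0.57, adjusted p = 7.85e-06, limma).

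The antioxidant response element TGACNNNGC, searched on both strands in the same window, stood in 4 of the 11 promoters of NRF2 targets and glutathione transferases that rose (36.36%), against 16.85% of measured genes and 13.99% of all promoters. It also stood in promoters of the stress response genes, 3 of 10 of those that rose (30%) and 4 of 13 of those not called (30.77%). The NRF2 list also holds known targets, so its share is no separate evidence. The 4 NRF2 targets and glutathione transferases with a match were Gclm, Txnrd1, Srxn1 and Mgst1. Gclm, which changed most of these by its test, is printed with the match in capitals, from chr3:122245307-122245606 on the plus strand (GRCm38.p6). The match begins 134 bases before the start.
Gclm: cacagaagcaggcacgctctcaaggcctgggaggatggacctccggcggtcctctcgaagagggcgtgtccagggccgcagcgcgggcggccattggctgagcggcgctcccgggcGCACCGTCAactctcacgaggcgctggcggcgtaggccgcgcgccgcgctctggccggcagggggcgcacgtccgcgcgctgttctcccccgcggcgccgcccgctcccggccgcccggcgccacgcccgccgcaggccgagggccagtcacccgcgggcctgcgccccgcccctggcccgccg

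Of 23 measured hypoxia-inducible genes 7 rose and 0 fell (30.4%), at a median of 0.24. Ndrg1, a stress-induced gene of epithelia, read 11.12, 10.79 and 10.69 with hairpin 1 and 9.94, 10.09 and 10.31 with scramble. It rose by 0.75 (SE 0.115, adjusted p = 0.000111, limma; another probe 0.53), and its groups did not overlap. Plod2, which hydroxylates collagen lysines, rose by 0.48 (adjusted p = 0.00116), and the mitophagy receptor Bnip3l by 0.37 (adjusted p = 0.00243, limma). The glucose transporter Slc2a1 (0.28), the adenylate kinase Ak4 (0.50), adrenomedullin (Adm, 0.61) and the demethylase Kdm3a (0.28) also passed. Slc2a1 and Ak4 were at adjusted p = 0.0685 and 0.113 without hairpin 1 replicate 3, Kdm3a at 0.172 without the same array, and Adm at 0.191 without scramble replicate 1. The list count was 3 without hairpin 1 replicate 3, and 4 without scramble replicate 2 or scramble replicate 3. Vegfa changed by 0.27 and was not called (adjusted p = 0.145).

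Of 15 glycolytic genes 3 rose, Eno2 (0.64, adjusted p = 0.000535), Ldha (0.30, adjusted p = 0.00763) and Slc2a1. Ldha, which makes lactate, read 13.05, 13.12 and 13.04 with hairpin 1 and 12.83, 12.76 and 12.72 with scramble, so a small difference was apart on every array. Of 76 measured subunits of the respiratory chain and ATP synthase 1 was called, Sdhc (-0.41, adjusted p = 0.00166, limma), a subunit of succinate dehydrogenase, and the median was -0.02. Txnip and Arrdc4, arrestin-like genes whose transcripts follow glucose through MondoA, both fell, and were named after their values had been seen. Txnip read 8.46, 8.36 and 8.30 with hairpin 1 and 8.94, 8.94 and 9.29 with scramble (-0.69, adjusted p = 0.000346), and Arrdc4 changed by -0.56 (adjusted p = 0.0206, limma), with an adjusted p of 0.12 without hairpin 1 replicate 2.

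**Figure D3:**
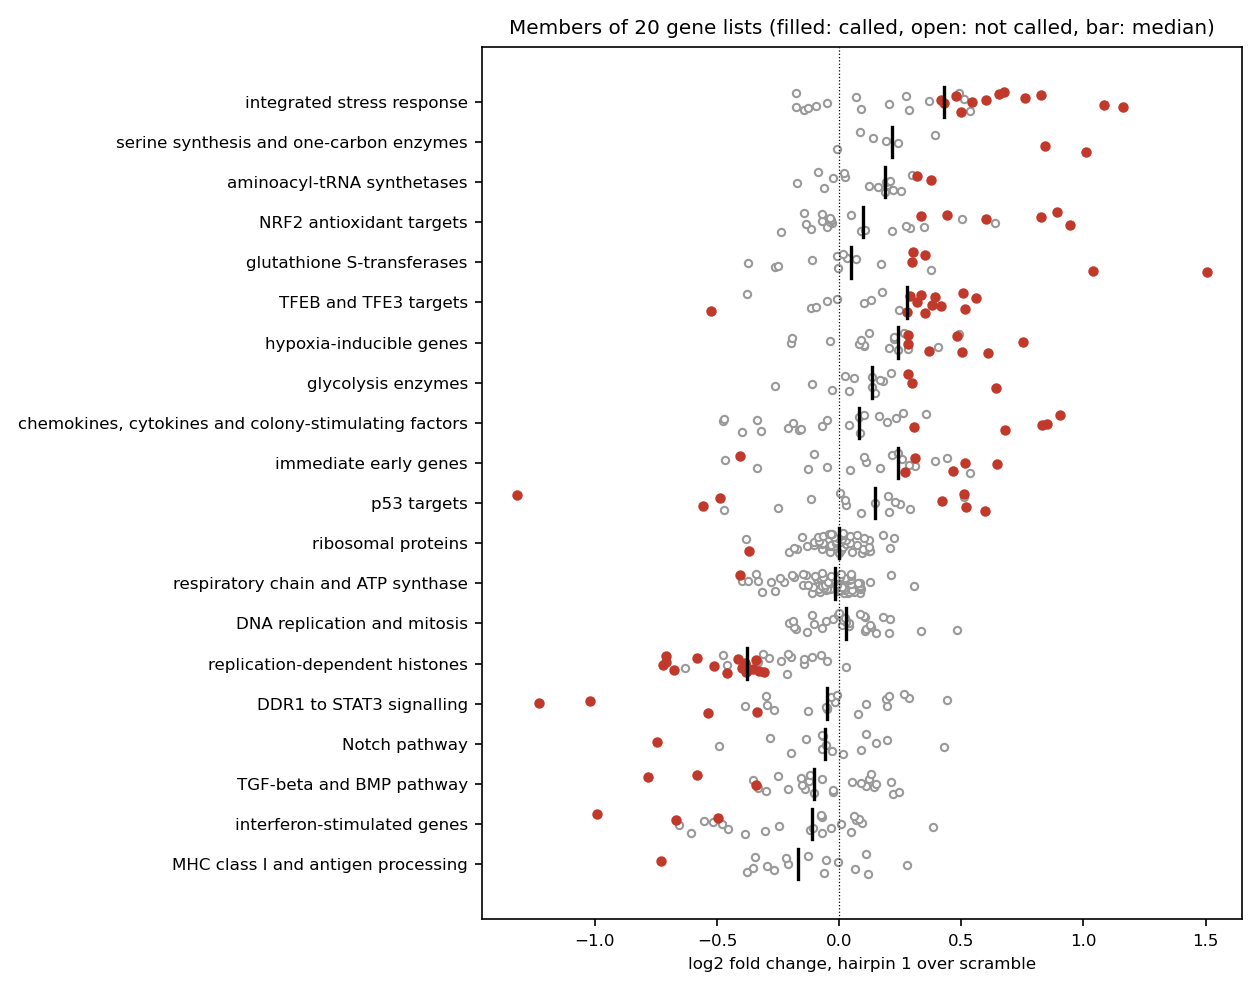
For 20 gene lists, each point is the log2 change of 1 measured member, hairpin 1 minus scramble. Points are filled where limma called the member at an adjusted p under 0.05, and the bar is the list's median. The histone and TFEB lists were chosen after values had been seen, and the others with earlier results of these data known. The integrated stress response (median 0.43, 12 of 27 higher) lies to the right and the histones (median -0.38, 18 of 35 lower) to the left.

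The 2 largest rises of the comparison were in proliferins, growth factors of the prolactin family that the placenta and growing cells secrete. Prl2c3 read 9.04, 9.01 and 8.71 with hairpin 1, against 6.94, 6.68 and 6.47 with scramble. It was 4.67-fold higher (log2 change 2.22, SE 0.126, adjusted p = 3.84e-12, limma). Prl2c4 was 4.55-fold higher, though probes of these near-identical genes may read the same transcripts. They were the 2 measured of 22 prolactin family genes on the array. Other secreted factors also rose. Of 25 measured chemokines, cytokines and related enzymes 5 rose and 0 fell (20%), at a median of 0.08. Cxcl16, a transmembrane chemokine, read 8.09, 8.42 and 8.01 with hairpin 1 and 7.22, 7.25 and 7.57 with scramble (0.83, adjusted p = 9.13e-05, limma).

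The neutrophil attractant Cxcl5 read 8.68, 9.04 and 8.75 with hairpin 1, against 7.89, 8.05 and 7.98 with scramble. It rose by 0.85 (SE 0.211, adjusted p = 0.0138, limma), with an adjusted p of 0.0902 without hairpin 1 replicate 2. Ptgs2, which encodes cyclooxygenase 2, rose by 0.90 (adjusted p = 0.0204), was detected on 1 of 3 scramble arrays and had an adjusted p of 0.121 without hairpin 1 replicate 3. Ccl9 (0.68, adjusted p = 0.0412) was at 0.322 without scramble replicate 3 and Cxcl1 (0.30, adjusted p = 0.0293) at 0.154 without hairpin 1 replicate 2. The count of the list was 2 when any of hairpin 1 replicate 2, hairpin 1 replicate 3, scramble replicate 1 or scramble replicate 3 was left out. Of 23 immediate early genes 5 rose and 1 fell, with 2 rises without hairpin 1 replicate 2 and 3 without hairpin 1 replicate 3, scramble replicate 1 or scramble replicate 3. Ier3, a survival gene, read 12.26, 12.61 and 12.61 with hairpin 1 and 11.91, 11.82 and 11.81 with scramble (0.65, adjusted p = 7.47e-05), and Dusp1, a phosphatase of MAP kinases, rose by 0.47 (adjusted p = 0.00196, limma).

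Transport genes were among the rises outside these groups. Slc14a1, a urea transporter, read 7.04, 7.25 and 7.38 with hairpin 1, against 6.05, 6.0 and 5.73 with scramble (1.29, SE 0.129, adjusted p = 2.24e-07, limma), with other probes at 1.05 and 0.60. Atp13a4, a P-type ATPase, rose by 1.27 (adjusted p = 1.98e-05), and the water channel Aqp5 by 0.90 (adjusted p = 7.66e-07, other probe 0.87). Of 136 measured genes with solute carrier symbols 16 rose and 1 fell, 12.5% called at a median of 0.05. One of the 16, Slc7a6os, is named for its overlap with a carrier gene and is not itself a carrier. The count of rises was 10 without hairpin 1 replicate 3 or scramble replicate 2.

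Of 14 metallothioneins and iron handling genes 3 rose and 1, Lcn2, fell, at a median of 0.09. The zinc exporter Slc30a1 was detected on 3 of 3 hairpin 1 arrays and 0 of 3 scramble arrays, and was at least 1.28-fold higher (adjusted p = 0.00832, limma). The metal-binding metallothioneins Mt1 (0.37, adjusted p = 0.00126) and Mt2 (0.81, adjusted p = 0.00981) rose. Mt1 read 13.37, 13.32 and 13.34 with hairpin 1, against 12.85, 13.02 and 13.05 with scramble, and Mt2 had an adjusted p of 0.106 without hairpin 1 replicate 2. The transferrin receptor Tfrc rose by 0.43 (adjusted p = 0.00196, other probe 0.47).

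Zfand2a, a proteasome-associated gene induced by arsenite, read 10.63, 10.89 and 10.73 with hairpin 1 and 9.95, 9.98 and 9.72 with scramble (0.86, SE 0.083, adjusted p = 1.17e-07, limma). Heat shock genes as a list did not follow it, since 1 of 13 rose (Hsph1, 0.38) and 1 fell (Hspb1, -0.67, adjusted p = 0.121 without hairpin 1 replicate 2). Nppb, a natriuretic peptide (0.99), the circadian repressor gene Ciart (1.00, other probe 1.09), the melanosome regulator Mreg (0.97) and Fam110c (0.96) were further rises with adjusted p between 5.87e-07 and 0.00157. Pvr, a nectin-like adhesion receptor, rose by 0.84 (adjusted p = 2.18e-05; another probe 0.42, adjusted p = 0.104) and the integrin subunit Itgb7 by 0.82 (adjusted p = 0.000114, limma). Havcr2, known for TIM-3 on immune cells, was detected on all hairpin 1 arrays and on 0 scramble arrays, and rose at least 1.21-fold (adjusted p = 0.00145, limma).

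Among the falls, Lcn2 had the lowest p. It encodes lipocalin 2, a secreted binder of iron-carrying siderophores, and read 10.57, 10.74 and 10.54 with hairpin 1 and 11.85, 11.80 and 11.88 with scramble. It was 2.34-fold lower (log2 change -1.23, SE 0.078, adjusted p = 1.84e-11, limma). Mmp9, which encodes gelatinase B, read 9.13, 9.15 and 9.08 with hairpin 1, against 10.15, 10.09 and 10.17 with scramble, 2.03-fold lower (-1.02, SE 0.085, adjusted p = 6.6e-09, limma). In both genes the groups lay further apart than the spread within either. They were 2 of the 4 members lower among 23 measured genes of the DDR1 to STAT3 list, with Ccnd1 (-0.34) and Bcl3 (-0.53), and 0 were higher. The list's median was -0.05. Ccnd1, cyclin D1, was lower at its other probes too (-0.40 and -0.39), at adjusted p = 0.0516 for the main probe without hairpin 1 replicate 2, and Bcl3 had an adjusted p of 0.157 without scramble replicate 3. The receptor and kinase genes of that route were not called: Ddr1 changed by -0.27 (adjusted p = 0.384), Jak2 by -0.29 (adjusted p = 0.0897) and Stat3 by -0.01 (adjusted p = 0.98).

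Other extracellular proteases and matrix genes moved in both directions. Of 24 proteases 4 fell and 1 rose. The urokinase gene Plau read 10.80, 10.69 and 10.76 with hairpin 1 and 11.14, 11.33 and 11.18 with scramble (-0.47, adjusted p = 0.000535, limma). Cathepsin L (Ctsl) fell by 0.49 (adjusted p = 0.0027), and the stromelysin Mmp10 rose by 0.64 (adjusted p = 0.00525). The collagen VI chain Col6a1 fell by 0.54 (adjusted p = 8.9e-05, other probe -0.48). Serpinf1, which encodes an antiangiogenic serpin, changed by -1.01 (adjusted p = 0.000607) and was detected on 2 of 3 hairpin 1 arrays. Of 22 measured sulfotransferases and proteoglycan enzymes 3 fell. They were Chst1 (-1.34), detected on 2 of 3 hairpin 1 arrays, Chst2 (-0.54), at adjusted p = 0.11 without hairpin 1 replicate 1, and the heparan sulfate polymerase Ext1 (-0.46, adjusted p = 0.00243, limma).

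Plvap, known from the diaphragms of endothelial fenestrae, showed the largest fall of a named gene. It read 6.41, 6.11 and 6.03 with hairpin 1, against 7.58, 7.51 and 7.71 with scramble (-1.41, SE 0.162, adjusted p = 1.61e-06, limma), 2.67-fold lower and detected on every array. Of 14 endothelial markers on the array 3 passed the detection filter, and Pecam1 and Cdh5, which define endothelium, did not. Fewer cells of a type and less RNA per cell cannot be told apart in such bulk samples. Tfap2c, a transcription factor of mammary epithelium, read 5.84, 5.28 and 5.54 with hairpin 1, against 7.12, 6.91 and 6.76 with scramble (-1.37, SE 0.206, adjusted p = 8.9e-05, limma). It was detected on 2 of 3 hairpin 1 arrays, and its other probe gave -0.51 and was not called (adjusted p = 0.244, limma). Trp53i11 (-1.32), Pi16 (-1.32) and Mustn1 (-1.10) were detected on 2, 1 and 2 of the hairpin 1 arrays, so their sizes rest on signals near background. Selenbp1, a selenium-binding protein, fell by 0.86 (adjusted p = 1.26e-05) and Tle6, a Groucho-like co-repressor, by 0.84 (adjusted p = 1.39e-05, limma).

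Of 16 measured Notch pathway genes 1 was called (6.25%, near the 5.83% of all genes), a fall of the receptor Notch1. It read 8.58, 8.38 and 8.72 with hairpin 1 and 9.32, 9.28 and 9.31 with scramble (-0.75, SE 0.106, adjusted p = 4.4e-05, limma). The Notch target Hes1 changed by -0.49 and was not called (adjusted p = 0.0806). Of 19 Wnt pathway genes 2 fell (10.5%), the Wnt deacylase Notum (-0.93, adjusted p = 0.000106, limma) and Ccnd1. Of 27 TGF-beta and BMP genes 3 fell (11.1%). These were Ltbp3 (-0.34), which stores latent TGF-beta, with an adjusted p of 0.0764 without hairpin 1 replicate 3, the co-receptor gene Tgfbr3 (-0.58), at 0.248 without scramble replicate 3, and Tgfbi, at least 1.3-fold lower and at 0.0565 without scramble replicate 3.

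Interferon-stimulated genes had 3 falls and 0 rises among 26 measured (11.5% called, against 5.83% of all genes), at a median of -0.11. Usp18, which removes ISG15 from proteins, was detected on 2 of 3 scramble arrays and on 0 hairpin 1 arrays, at least 1.15-fold lower (adjusted p = 0.00184, limma). Oasl2 read 8.02, 7.60 and 8.01 with hairpin 1, against 8.50, 8.43 and 8.18 with scramble (-0.49, adjusted p = 0.0143), and had an adjusted p of 0.127 without hairpin 1 replicate 2. Oas1g (-0.67, adjusted p = 0.0304) was at 0.184 without the same array. The median of the list on that array was -0.37, against -0.056 and -0.13 on the other hairpin 1 arrays, and the count of falls was 1 without it and 1 without scramble replicate 1. Among 16 genes of MHC class I presentation 1 was called (6.25%), near the share of all genes. It was Psmb8 of the immunoproteasome, lower by at least 1.44-fold (adjusted p = 0.0269, and 0.17 without scramble replicate 3, limma).

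Replication-dependent histone genes fell together. This list was drawn up after values had been seen and is given as a description. Of 35 measured members 18 fell and 0 rose (51.4%), and 34 of the 35 changes were negative, at a median of -0.38. On single arrays the median was -0.40, -0.40 and -0.35 with hairpin 1, against 0.035, -0.047 and -0.036 with scramble. H3c6 read 8.17, 8.25 and 8.28 with hairpin 1 and 8.78, 8.82 and 8.85 with scramble (-0.58, adjusted p = 0.00233, limma), and H2bc15 fell by 0.72 (adjusted p = 0.00112). The falls comprised 9 of 11 H2A, 4 of 8 H2B, 4 of 8 H3 and 1 of 7 H4 genes. Of the 35 genes 30 lie in the cluster on chromosome 13, where 15 fell, and 5 on chromosome 3, where 3 fell. Paralogs within a class are near-identical, so the probes are not independent of each other. The count was 10 without hairpin 1 replicate 1, 11 without hairpin 1 replicate 3 or scramble replicate 1, and 12 without scramble replicate 3. Of 31 measured genes of DNA replication and mitosis limma called 0, with a median of 0.03 and changes between -0.20 and 0.48.

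Of 21 p53 targets 4 rose and 3 fell, with 2 rises when hairpin 1 replicate 1, hairpin 1 replicate 3 or scramble replicate 2 was left out. The cell cycle inhibitor Cdkn1a read 9.15, 9.18 and 9.26 with hairpin 1, against 8.61, 8.72 and 8.49 with scramble (0.60, adjusted p = 0.000365, limma), and its other probes gave 0.36 and 0.39 and were not called. Gadd45a, another growth arrest gene, moved the other way, with 8.88, 8.99 and 9.07 with hairpin 1 and 9.46, 9.48 and 9.68 with scramble (-0.56, adjusted p = 0.000754; other probe -0.55). Of 54 measured ribosomal protein genes 1 was called, Rpl22 (-0.37, adjusted p = 0.0113), which was at 0.0847 without hairpin 1 replicate 3, and the median was -0.00055.

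Lysosomal genes were mixed. Of 29 in the list of lysosome and autophagy genes 4 rose and 2 fell. Neu1, the lysosomal sialidase, read 9.33, 9.35 and 9.27 with hairpin 1 and 8.70, 8.78 and 8.80 with scramble (0.56, adjusted p = 0.000125, limma). Atp6v1a, a subunit of the proton pump that acidifies lysosomes, changed by -0.52 (adjusted p = 0.00529). A narrower list of targets of the lysosomal regulators TFEB and TFE3, drawn up after values had been seen, had 11 rises and 1 fall among 21 measured, at a median of 0.28. It included Neu1, the autophagy gene Uvrag (0.51, adjusted p = 0.00185) and folliculin (Flcn, 0.42, adjusted p = 0.00231), a regulator of nutrient sensing at the lysosome. The count of rises was 6 without hairpin 1 replicate 1 or 2, 7 without hairpin 1 replicate 3 and 5 without scramble replicate 3. Among 14 measured targets and feedback inhibitors of ERK signalling, also listed after values had been seen, 5 fell and 1 rose. Etv5, a transcription factor gene that ERK induces, fell by 0.72 (adjusted p = 0.00351, limma). The number of falls was 2 without hairpin 1 replicate 2 and 3 without scramble replicate 3.

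Few marker genes of other cell types passed the detection filter, which counts all 15 arrays. Of 16 blood cell markers and 12 fibroblast markers on the array 3 each passed it, and Ptprc and Col1a1 did not. On all 3 scramble arrays 2 of these blood cell and 1 of these fibroblast markers were detected, and on all 3 hairpin 1 arrays 2 and 3. S100a8, a calcium-binding protein of neutrophils that carcinoma cells can also make, changed by -0.31 (adjusted p = 0.0134, and 0.0771 without hairpin 1 replicate 1). Of 11 mammary epithelial markers 5 passed and 0 were called. The keratin Krt7 had the largest change (-0.47, adjusted p = 0.0787, limma), and it was called in 4 alternatives, such as no background correction (adjusted p = 0.0184). Krt8 (-0.14) and Krt18 (-0.06) did not pass the test, and the mesenchymal filament gene Vim changed by -0.06. Cdh1 and Krt19 were on the array and did not pass the detection filter.

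Whether hairpin 5 gave the same changes was asked next. Both comparisons with scramble share the scramble arrays, so their changes are given side by side and the difference was tested directly, hairpin 1 against hairpin 5. Tm4sf1 itself read 7.07, 6.72 and 5.96 with hairpin 5, and hairpin 1 lay above it by 0.36, with a 95% interval from -0.04 to 0.76 (adjusted p = 0.441, limma). Between the hairpins 153 genes were called (1.86%), of which 103 were higher (1.25%) and 50 lower (0.608%) with hairpin 1. The count was 100, 80 and 90 without hairpin 1 replicates 1, 2 and 3, and 92 without hairpin 5 replicate 1. Of the 480 genes changed by hairpin 1 against scramble, 143 were also called with hairpin 5 in the same direction, 0 in the opposite one, and 337 were not called with hairpin 5. The sign of the change was the same with hairpin 5 for 459 of the 480, which the shared scramble arrays favour. A gene not called with hairpin 5 is not thereby shown to be unchanged. Of those 480 genes 69 differed between the hairpins, 64 of them in the direction of their change from scramble. Both tests use the same hairpin 1 arrays, which favours that direction. For the rest a difference from hairpin 5 was not called, which does not show that the hairpins acted alike.

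Genes of the stress and hypoxia lists were among those that differed. Those named here had risen over scramble on the same hairpin 1 arrays, which favours a difference in that direction. Of the 27 stress response genes 5 were higher with hairpin 1 than with hairpin 5 and 0 lower. Hairpin 5 against scramble called 4 of the 27 higher and 2 lower, where 3.52% of all genes were called. Ddit3 read 6.58, 6.80 and 7.14 with hairpin 5, below every hairpin 1 array, a difference of 0.92 (SE 0.136, adjusted p = 2e-04, limma). Chac1 differed by 0.76 (adjusted p = 3.15e-06) and Slc7a11 by 0.68 (adjusted p = 0.000743), with changes from scramble of 0.40 and 0.14 in hairpin 5. Aldh1l2 differed by 0.85 (adjusted p = 0.000123) and Mthfd2 by 0.61 (adjusted p = 0.00584). Of 23 hypoxia-inducible genes 5 were higher with hairpin 1, including Plod2 (0.69, adjusted p = 3.65e-05), Ndrg1 (0.52, adjusted p = 0.013) and Bnip3l (0.32, adjusted p = 0.0178). Ndrg1 was at adjusted p = 0.127 without hairpin 1 replicate 1 and Bnip3l at 0.154 without hairpin 1 replicate 2. With hairpin 5 against scramble 0 genes of that list were called.

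**Figure D4:**
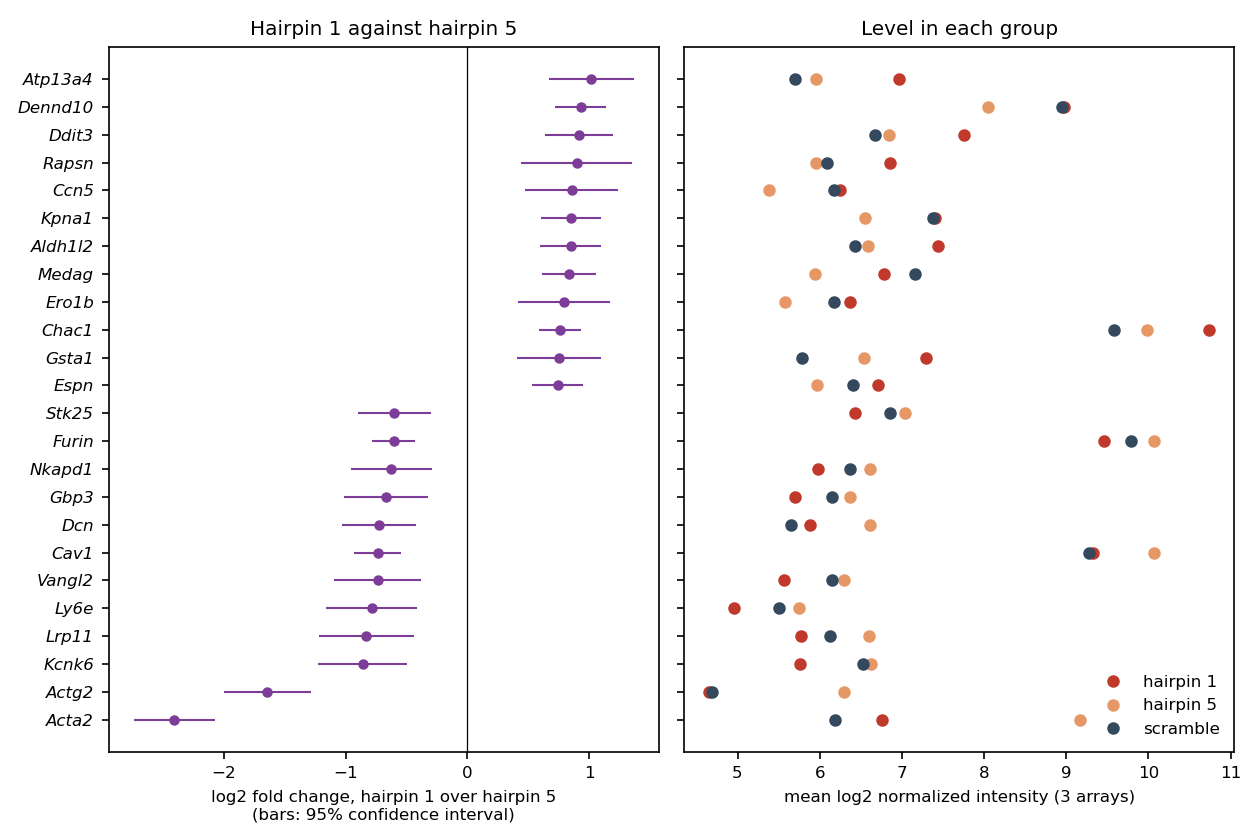
Left, the largest differences between the hairpins as log2 hairpin 1 minus hairpin 5 with 95% intervals from limma; right, the mean normalized log2 signal of the same genes over 3 arrays each of hairpin 1, hairpin 5 and scramble. Ddit3 (0.92) and Chac1 (0.76) lie right of zero, and Acta2 (-2.41) lies furthest left.

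Muscle and caveolar genes also differed between the hairpins. The smooth muscle actin gene Acta2 read 6.89, 6.44 and 6.94 with hairpin 1, 9.29, 9.09 and 9.11 with hairpin 5, and 6.27, 6.07 and 6.22 with scramble. The difference, hairpin 1 minus hairpin 5, was -2.41 (SE 0.162, adjusted p = 2.54e-10, limma). The change of Acta2 from scramble with hairpin 1 was 0.57 (adjusted p = 0.0353), other probes gave 0.51, 0.43 and -0.11, and the call was lost at adjusted p = 0.179 without hairpin 1 replicate 3. Actg2 was not detected with hairpin 1 or scramble and was at least 2.13-fold higher with hairpin 5 than with hairpin 1. The caveolin Cav1 read 9.34, 9.33 and 9.31 with hairpin 1, 10.29, 10.03 and 9.86 with hairpin 5, and 9.31, 9.32 and 9.22 with scramble, a difference between the hairpins of -0.74 (adjusted p = 3.65e-05, limma). Dennd10 and Kpna1 were higher with hairpin 1 by 0.93 (adjusted p = 3.15e-06) and 0.85 (adjusted p = 0.000111), while their changes from scramble with hairpin 1 were 0.03 and 0.02.

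Smaller differences between the hairpins touched secreted proteins and enzymes. Mmp9 lay above hairpin 5 by 0.43 (adjusted p = 0.00582, limma), being lower than scramble by 1.02 with hairpin 1 and by 1.45 with hairpin 5 on the log2 scale. The urokinase gene Plau was lower with hairpin 1 than with hairpin 5 by 0.40 (adjusted p = 0.00701), and read 11.12, 11.21 and 11.10 with hairpin 5. Without hairpin 1 replicate 2, Plau and Prl2c4 were at adjusted p = 0.0526 and 0.0525. Prl2c4 was higher with hairpin 1 by 0.62 (adjusted p = 0.00673), and Gsta1 by 0.75 (adjusted p = 0.0127), a call that was lost at adjusted p = 0.0723 without hairpin 5 replicate 1. For Lcn2 the difference was 0.19 (adjusted p = 0.27), for Plvap -0.03 (adjusted p = 0.96) and for Notch1 -0.18 (adjusted p = 0.5).

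Of all 8228 genes, 12 (0.146%) were detected on every hairpin 1 array and no scramble array, of which limma called 5 higher, and 12 (0.146%) on every scramble array and no hairpin 1 array, of which 6 were called lower. The pattern and the fold come from the same signals, so these calls are no separate evidence. Besides those above, Osbpl10, a lipid-transfer protein gene (at least 1.16-fold, adjusted p = 0.0178), was higher, at adjusted p = 0.0795 without scramble replicate 3. Ecrg4, which encodes a secreted peptide precursor (at least 1.63-fold, adjusted p = 0.000772), and Gmppb, an enzyme that makes GDP-mannose (at least 1.41-fold, adjusted p = 0.00484, limma), were lower.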

How the data were processed

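Total RNA was labelled with biotin and hybridised to Illumina mouse bead arrays, per the labels' protocols. The deposited table holds 1 summarized intensity per probe and array without normalization or background subtraction, per the file headers, and a detection p-value beside it. GenomeStudio is named, without a version, in the submitters' processing notes. A deposited table of normalized intensity served as an alternative only, and no source used here gives its method. Its column medians over all probes were 8.34 to 8.45 intensity units, so the centring was close between arrays.

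Intensities were background-corrected with normexp from the deposited detection p-values (offset 16), quantile-normalized over all 15 arrays and put on the log2 scale. A probe had to be detected, with p under 0.01, on 3 or more arrays, which 11109 of 25697 were, and the brightest probe stood for each symbol, giving 8228 genes, 652 of them probes without a symbol. Of all probes 23978 had 1 gene symbol, 0 several and 1719 none, and 23962 of the symbols matched RefSeq. limma 3.58.1 in R 4.3.3 fitted 5 group means to all arrays with a variance trend, and Benjamini-Hochberg adjusted p-values were taken over all 8228 genes, with a threshold of 0.05. The same code was tested on simulated data.

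An "at least" fold sets a group's mean against the lowest detected signal of arrays where the gene was not detected. It is not a confidence bound on the change. With 3 arrays a group the number of arrays limits the precision. Named genes are the 25 largest called rises and 25 falls whose arrays do not overlap, 12 each way against hairpin 5, up to 8 detected in 1 group alone each way, and up to 6 called members of each list; predicted genes were skipped. Members and lists were chosen with earlier results of these data known, and genes named beyond the rule are said to be so or serve as uncalled members and markers of a list. No pairing by replicate number was visible across genes, which does not show how the samples were handled. Deviations from the group mean correlated at -0.017, -0.037 and -0.052 for same-numbered hairpin 1 and scramble arrays. For differently numbered arrays of these groups they correlated at -0.017 to 0.059.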

Additional observations from a re-analysis of the deposited data

How the results depend on the processing

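Against scramble 480 genes were called. Some settings gave more: 689 with weights for the arrays, 556 with only the compared arrays and 522 over all 11109 detected probes. The deposited normalized intensities gave 473, of which 465 were among the 480. The total under other settings, which need not be the same genes, was 48 under median scaling of all probes (22 higher, 26 lower), 440 under median scaling over probes detected on all arrays (chosen after seeing the data), 318 with no detection filter over 18312 genes (162 higher), and 171 when each group lost its dimmest array (92 higher, 79 lower). Leaving out 1 array gave 273 to 355 calls, 135 to 170 higher and 135 to 187 lower. Against hairpin 5, where 153 were called, the total was 2 under median scaling, 101 with no detection filter, 84 with no variance trend and 43 without the dimmest arrays, and 80 to 161 when 1 array was left out. Why the counts differed between settings was not tested. The fit with the replicate number as a block called 443 genes against scramble, 437 of them among the 480, and 140 against hairpin 5. Tm4sf1 fell under every alternative, by 0.77 to 1.22. Of 145 named genes called against scramble, 34 kept the call in every alternative run for them (21 for 24 of these genes, and 20 for the 10 that were not detected on all 6 arrays), 69 lost it in 1 to 5 and 42 in more, and 0 changed direction. Median scaling ended 108 of the 145 calls. Dcn, which was not called, turned to -0.010 without the dimmest arrays. Without the dimmest arrays 8 of 27 stress response genes, 2 of 26 NRF2 targets, 7 of 35 histones and 3 of 21 TFEB and TFE3 targets were called in the list's direction, and under median scaling 2, 1, 1 and 0. The median standard error of a change was 0.195 in the dimmest of 3 equal bins of genes and 0.0887 in the brightest, so small changes of dim genes could not be called.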
